A study of Mus musculus with 4 samples.

Results

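The Hippo pathway effectors described here were 10 genes, chosen by symbol from the 24442 genes of a table of read counts. They are the coactivators Yap1 and Wwtr1 (the gene of TAZ), the DNA-binding factors Tead1 to Tead4, the kinases Lats1 and Lats2, and the regulators Amotl2 and Ajuba. RNA was sequenced from mammary cells of female mice, 5 weeks old, that all carried the Lgr6-eGFP-CreErt2 allele, in which a green fluorescent reporter and a tamoxifen-inducible Cre recombinase are tied to Lgr6. Cells without lineage markers were sorted as Lgr6-positive or Lgr6-negative, with 2 libraries of each and no other treatment in the labels. The labels do not state which lineage markers were used or how Lgr6-negative cells were gated. They do not say that replicates came from separate animals, so p-values measure the spread between these libraries, which may be technical.

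In the Hippo pathway, LATS1 and LATS2 phosphorylate YAP and TAZ, which holds the coactivators in the cytoplasm or marks them for degradation. When the kinases are less active, YAP and TAZ enter the nucleus and bind TEAD proteins, which contact DNA and switch on genes of growth, matrix and cell shape. In the mammary gland TAZ has been tied to the basal lineage. Because much of this control acts on the proteins, RNA counts measure the supply of each component and not the activity of the pathway.

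Library totals were between 6819127 and 7167465 counts, and 11959 to 14144 genes were detected. The TMM factors that set the effective depth were 1.207 and 1.134 for the Lgr6-positive and 0.9289 and 0.7868 for the Lgr6-negative libraries, and the ribosomal RNA gene Rn45s took 17.22% and 14.5% against 18.69% and 30.82% of counts. Lgr6 itself had 172 and 655 counts in Lgr6-positive replicates 1 and 2 and 3 and 10 counts in Lgr6-negative replicates 1 and 2. Its log2 fold change, here always Lgr6-positive over Lgr6-negative, was 5.52 (standard error, SE, 1.47) with an adjusted p of 0.0510 in edgeR's quasi-likelihood test, just outside the threshold of 0.05. It was called in 9 of 12 alternative analyses, and its log2 fold change was 4.19 without Lgr6-positive replicate 2 (adjusted p = 0.349 in edgeR), 6.19 without Lgr6-positive replicate 1, 4.85 without Lgr6-negative replicate 1 and 6.74 without Lgr6-negative replicate 2. The populations differed in the markers of several cell types. Summed over 12 leukocyte markers, the Lgr6-positive libraries held 1904 and 2192 CPM (counts per 1000000 counts of the library, after TMM scaling) and the Lgr6-negative libraries 30390 and 34300, although lineage-negative cells were sorted. The sums were 3598 and 3484 against 142 and 110 CPM for 8 luminal epithelial markers, and 2126 and 2272 against 267.7 and 264.3 CPM for 9 basal ones. Red cells were lysed before the sort, and 7 red cell markers stood at 1316 and 1112 against 23.4 and 18.66 CPM, with Hbb-b2 left out because its values equal those of Hbb-bt in all 4 libraries. The 9 endothelial markers (1529 and 1849 against 270.4 and 153 CPM), 8 fibroblast markers (948.8 and 653.8 against 38.54 and 71.81 CPM) and 6 pericyte markers (315.5 and 133.9 against 1.092 and 18.49 CPM) were also higher in the Lgr6-positive libraries. Among the fibroblast markers, Pdgfra and Col6a2 had 0 counts in both Lgr6-negative libraries. The pericyte marker Kcnj8 also had 0 counts there, but it had only 1 and 0 counts in the Lgr6-positive libraries. Fewer cells of a type and less RNA per cell cannot be told apart in such bulk samples. These marker sums differ between the same populations as every Hippo gene given here, and their part in those differences was not tested.

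Of the 10 effector genes, 8 passed the filter on low counts and 2 of them rose in Lgr6-positive cells, Wwtr1 and Tead2, while none fell. Across all 11661 tested genes, 9.06% were called at an adjusted p under 0.05, 4.49% higher and 4.57% lower. At an unadjusted p under 0.05 in edgeR, 5 effectors were higher and 0 lower, against 14.3% and 10.8% of all tested genes. Limma-voom called 3 effectors higher and 0 lower, against 6.47% and 6.24% of all tested genes. DESeq2 called 5 effectors higher and 0 lower, where it called 20.6% of all tested genes, 12.1% higher and 8.55% lower. Both Lgr6-positive libraries lay above both Lgr6-negative libraries for 6 of the 8 tested effectors, against 30.0% of all tested genes. Lats2 lay below in both, as did 25.9% of all tested genes, and Ajuba overlapped.

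**Figure D1:**
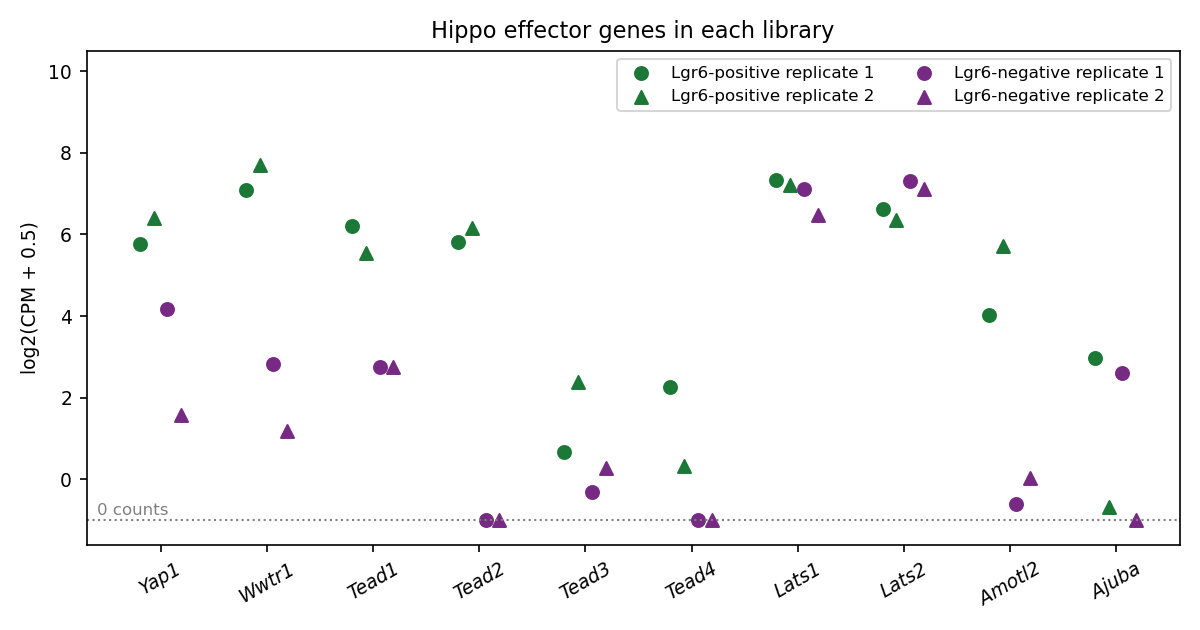
TMM-normalized CPM of each effector gene in each of the 4 libraries, on a log2 scale after adding 0.5, with points coloured by population. For Wwtr1, Tead2 and Amotl2 both Lgr6-positive libraries lie well above both Lgr6-negative ones, Lats1 and Lats2 lie close together in all 4 libraries, and Ajuba is scattered in both populations.

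Wwtr1 encodes the coactivator TAZ and lies at chr3:57455649-57575910 on the minus strand of GRCm38. Its counts were 1110 and 1652 in Lgr6-positive libraries and 42 and 10 in the Lgr6-negative ones, or 136.1 and 209.3 against 6.553 and 1.778 CPM. The groups were far apart and the lower Lgr6-positive library was above either Lgr6-negative one. Means were 172.7 ± 51.77 against 4.165 ± 3.377 CPM (SD, n = 2 libraries each), a log2 fold change of 5.36 (SE 0.88, adjusted p = 0.0076 in edgeR's quasi-likelihood test). The gene was called in all 12 alternative analyses, with adjusted p between 2.82e-09 and 0.0406. Its log2 fold change was 6.58 without Lgr6-negative replicate 1 and 4.70 without Lgr6-negative replicate 2.

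Yap1, the gene of the paralogous coactivator YAP, lies at chr9:7931999-8004596 on the minus strand. Its counts were 440 and 659 in Lgr6-positive libraries and 112 and 14 in the Lgr6-negative ones. Both Lgr6-positive libraries were higher, at 53.95 and 83.5 CPM, but the Lgr6-negative libraries differed widely from each other, at 17.47 and 2.489 CPM. The log2 fold change of 2.78 (SE 1.16) did not pass edgeR's quasi-likelihood test (adjusted p = 0.172). The outcome turned on Lgr6-negative replicate 1. Without it the log2 fold change was 4.77 with an adjusted p of 0.0394 in edgeR, and without Lgr6-negative replicate 2 it was 1.96 with an adjusted p of 0.459. DESeq2 also called Yap1, with an adjusted p of 0.0441.

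TEAD proteins are known to recognise the sequence GGAATG, or CATTCC on the opposite strand. This motif was searched on both strands in the 250 bases before each annotated start, in RefSeq promoter sequences of GRCm38.p6. Promoters were matched for 8 of the 10 effectors, with no entry used for Tead1 and Tead4. The motif was found for 5 of the 8, Yap1, Wwtr1, Tead3, Amotl2 and Ajuba. No share per gene over all genes is given here, and genes with several windows have more places for a match. These 5 hold it in 7 of their 8 start windows, a count that is high because they were picked for the motif. Over all 8 matched effectors it was in 7 of 12 windows, and in 12.6% of all 32851 windows of that length. Some windows overlap, and both Wwtr1 windows hold the same site, so the 7 windows are not independent. All 106 bases around the Amotl2 site lie in annotated Amotl2 exons. All 115 bases around the paired sites of a Tead3 window lie in Tead3 exons. The windows of Tead2, Lats1 and Lats2 did not hold these letters. A match is a description of the sequence and not evidence of binding. The promoters of both coactivator genes are shown because they hold the motif of the factors these coactivators bind, and those of Cyr61 (named Ccn1 in RefSeq) and Ptpn14 because these listed targets rose and hold it too. The window of Ankrd1, a listed target with 0 counts in all 4 libraries, also holds the motif. No window is given here for the other risen targets, Arhgef17 and Ccdc80, or for Ctgf. Each run reads 5′ to 3′ on the strand of the gene, with the motif in capitals, and runs over Yap1 at chr9:8004682-8004787 (minus), Wwtr1 at chr3:57575991-57576096 (minus), Ccn1 at chr3:145650033-145650138 (minus) and Ptpn14 at chr1:189728072-189728177 (plus).
Yap1: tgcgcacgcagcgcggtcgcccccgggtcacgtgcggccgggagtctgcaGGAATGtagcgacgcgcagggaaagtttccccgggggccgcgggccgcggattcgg
Wwtr1: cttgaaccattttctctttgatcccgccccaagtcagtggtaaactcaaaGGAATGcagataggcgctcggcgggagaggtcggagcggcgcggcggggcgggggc
Ccn1: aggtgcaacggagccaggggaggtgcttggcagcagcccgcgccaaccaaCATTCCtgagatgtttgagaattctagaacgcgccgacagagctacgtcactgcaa
Ptpn14: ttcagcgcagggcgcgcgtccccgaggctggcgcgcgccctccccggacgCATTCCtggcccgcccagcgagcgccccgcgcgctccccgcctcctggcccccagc
The motif begins at position -141 from the annotated start in Yap1, at -136 from one start and -170 from another in Wwtr1, at -103 in Ccn1 and at -146 in Ptpn14.

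The 4 TEAD genes encode the DNA-binding partners of YAP and TAZ. Tead2 (chr7:45215753-45233644, plus strand) had 454 and 556 counts in both Lgr6-positive libraries, or 55.67 and 70.45 CPM, and 0 counts in both Lgr6-negative libraries. Set against 3 counts per library, the level in Lgr6-positive cells was at least 125.9-fold higher, and edgeR's quasi-likelihood test gave an adjusted p of 0.00843. It was called in all 12 alternatives, with adjusted p between 1.64e-08 and 0.0111.

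Tead1 (chr7:112679318-112906807, plus strand) was present in both populations, with 596 and 364 counts against 40 and 35, or 73.08 and 46.12 against 6.241 and 6.222 CPM. The Lgr6-positive libraries were both higher and the Lgr6-negative ones nearly equal. The log2 fold change of 3.25 (SE 1.05) did not pass edgeR's test (adjusted p = 0.0905), while DESeq2 gave an adjusted p of 0.00226 and was the only one of the 12 alternatives to call it. Tead3 (chr17:28331671-28350817, minus strand) had 9 and 37 counts against 2 and 4. Tead4 (chr6:128224288-128300823, minus strand) had 35 and 6 counts against 0 and 0, at least 5.045-fold higher against the same floor. That bound was 1.518-fold without Lgr6-positive replicate 1 and 8.572-fold without Lgr6-positive replicate 2. Neither gene passed the filter on low counts, so neither was tested in the reported fit. Each was tested in 4 of the 12 alternatives and called in 0 of them.

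Per kilobase of merged exons, the 4 TEAD genes summed to 18.37 and 19.02 CPM per kb in the Lgr6-positive libraries and 0.5064 and 0.5644 in the Lgr6-negative ones. Tead2 made up 63.29% and 77.35% of that sum in Lgr6-positive cells (mean 70.32% ± 9.94, SD, n = 2). Tead1 made up 29.32% and 17.87% there, and 90.82% and 81.24% in Lgr6-negative cells, where the remainder was Tead3 at 9.18% and 18.76%. The leading TEAD transcript was thus Tead2 in both Lgr6-positive libraries and Tead1 in both Lgr6-negative ones. The Lgr6-negative shares of Tead3 rest on 2 and 4 counts.

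**Figure D2:**
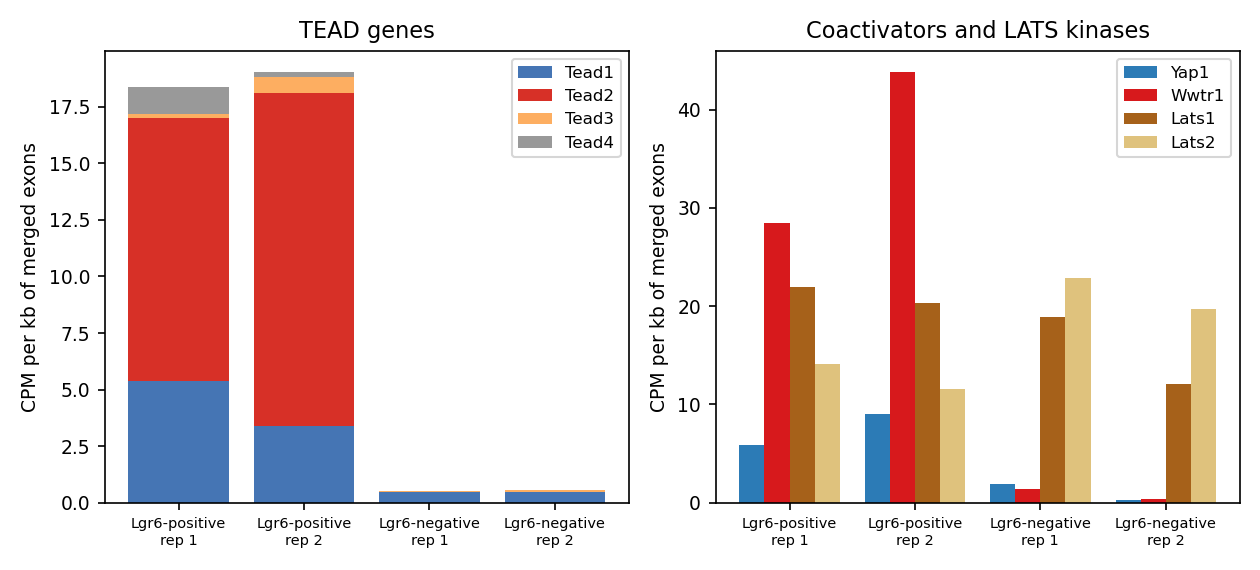
Level per kilobase of merged exons (TMM-normalized CPM per kb) in each of the 4 libraries. The TEAD genes are stacked, beside Yap1, Wwtr1, Lats1 and Lats2, and Amotl2 and Ajuba are not drawn. Among the single genes drawn, Wwtr1 is the highest in both Lgr6-positive libraries and Lats2 in both Lgr6-negative libraries.

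On the same scale of CPM per kb, Wwtr1 was the highest effector in both Lgr6-positive libraries at 28.48 and 43.8, and Lats2 was the highest in both Lgr6-negative libraries at 22.85 and 19.71. Yap1 was at 5.828 and 9.021 in Lgr6-positive and 1.888 and 0.2688 in Lgr6-negative libraries. The ratio of Wwtr1 to Yap1 per kilobase was 4.887 and 4.856 in the Lgr6-positive libraries and 0.7264 and 1.384 in the Lgr6-negative ones. With the longest annotated transcript as the length, it was 2.837 and 2.819 against 0.4217 and 0.8032. The ratio of the summed coactivators to the summed LATS kinases was 0.953 and 1.657 against 0.0781 and 0.0201. With 2 libraries per group no permutation test of these ratios can reach the threshold, and none was made.

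LATS1 and LATS2 are the kinases that act directly on YAP and TAZ. Lats1 (chr10:7681214-7716460, plus strand) had 1305 and 1168 counts against 883 and 498, or 160.0 and 148.0 against 137.8 and 88.52 CPM. Its Lgr6-positive libraries were slightly higher, with a log2 fold change of 0.44 (SE 0.52, adjusted p = 0.687 in edgeR). Lats2 (chr14:57689662-57758388, minus strand) had 800 and 638 counts against 1021 and 773, or 98.1 and 80.84 against 159.3 and 137.4 CPM. Both of its Lgr6-positive libraries were lower, with a log2 fold change of -0.73 (SE 0.52, adjusted p = 0.464 in edgeR). Neither kinase gene was called in any of the 12 alternatives, where log2 fold changes ranged from 0.14 to 0.87 for Lats1 and from -0.88 to -0.29 for Lats2. Of the exonic length of Lats2, 42.4% overlaps the gene model Gm49361, a model with no row of its own in the count table, so reads of the overlap cannot be assigned to either with certainty.

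Amotl2 encodes an angiomotin, a junction protein that binds YAP, and its gene is also a known YAP and TAZ target. At chr9:102716672-102733418 on the plus strand, it had 130 and 408 counts in Lgr6-positive libraries and 1 and 3 in the Lgr6-negative ones, or 15.94 and 51.7 against 0.156 and 0.533 CPM. The groups did not overlap. The ratio of the populations was 100.9, with a 95% counting interval of 39.17 to 371.5 that covers counting error only. The adjusted p was 0.0530 in edgeR's quasi-likelihood test and was under 0.05 in 7 of the 12 alternatives, ranging from 8.06e-05 to 0.294. Lgr6-positive replicate 2 held most of the counts, and without it the log2 fold change was 5.44 (adjusted p = 0.294), against 6.56 with all libraries. It was 7.17 without Lgr6-positive replicate 1, 5.93 without Lgr6-negative replicate 1 and 7.61 without Lgr6-negative replicate 2.

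AJUBA is a LIM protein that restrains LATS kinases. Ajuba (chr14:54567472-54577558, minus strand) had 60 and 1 counts in Lgr6-positive libraries and 36 and 0 in the Lgr6-negative ones. In each population 1 library held nearly all counts, so the groups overlapped. The log2 fold change was 0.41 (SE 2.48, adjusted p = 0.955 in edgeR). It was -4.29 without Lgr6-positive replicate 1, -0.61 without Lgr6-negative replicate 2 and 7.75 without Lgr6-negative replicate 1.

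**Figure D3:**
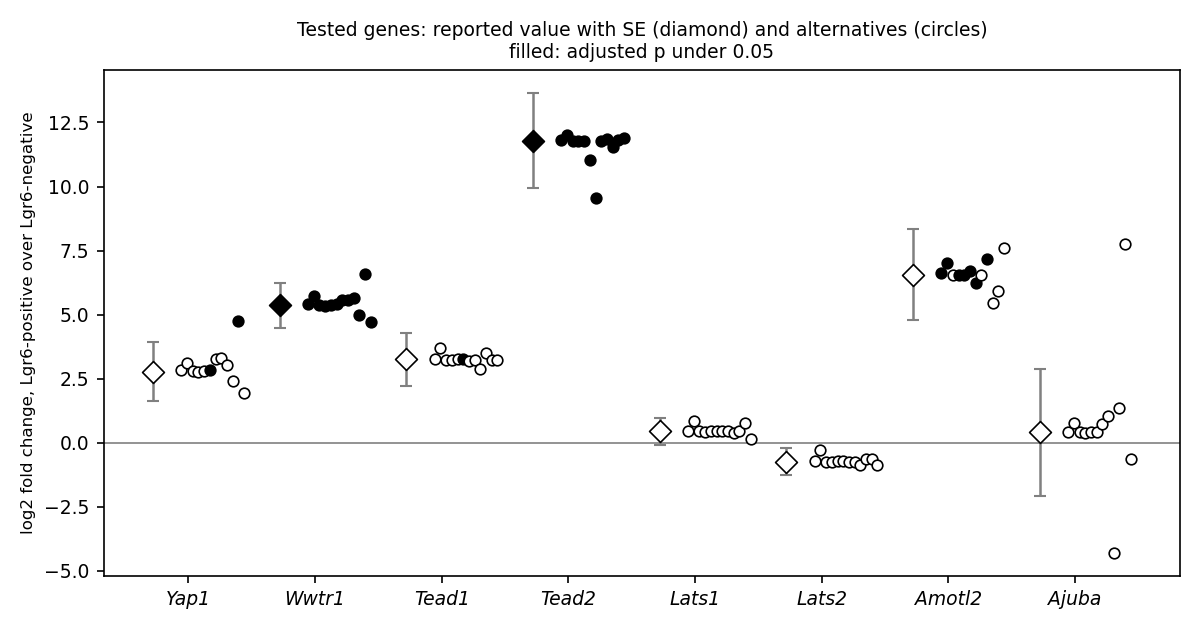
Log2 fold change, Lgr6-positive over Lgr6-negative, of the 8 tested effectors. Diamonds with SE bars are the values reported and circles the 12 alternatives, filled where the adjusted p is under 0.05. Wwtr1 and Tead2 are filled throughout and Ajuba lies on both sides of 0. The fitted value of Tead2 depends on the prior count, because the gene had 0 counts in both Lgr6-negative libraries.

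The pathway around the effectors was read from 4 lists. In the core kinase module (upstream kinases, their adaptors and related kinases), 0 of 20 tested genes were called higher and 1 lower by edgeR, and the median log2 fold change was -0.03, against 0.10 over all tested genes. Over all tested genes 4.49% were called higher and 4.57% lower. At an unadjusted p under 0.05 the kinase module had 2 genes higher and 4 lower (14.3% and 10.8% of all genes), with DESeq2 1 and 4 (12.1% and 8.55%), and with limma-voom 0 and 1 (6.47% and 6.24%). The gene that fell was Stk38, which encodes a kinase of the same family as LATS. It had 163 and 40 counts against 808 and 1013, with a log2 fold change of -3.61 (SE 0.85, adjusted p = 0.0325 in edgeR's test). The call was lost without Lgr6-negative replicate 2 (adjusted p = 0.0592) and with scaling by library size (0.069), and the log2 fold change was -4.92 and -2.96 without Lgr6-positive replicates 1 and 2. Stk4, the gene of MST1, which activates LATS kinases, had 585 and 688 counts against 2025 and 1032 and did not pass (adjusted p = 0.0783 in edgeR). Map4k1, at 19 and 67 counts against 337 and 412, and Stk25, at 63.52 and 76.53 against 10.77 and 4.266 CPM, did not pass either (adjusted p = 0.0902 and 0.0865 in edgeR). Of the exonic length of Stk25, 23.6% overlaps Farp2 and Gm28536.

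Among 22 junction, polarity and scaffold regulators, 19 were tested, of which 7 rose, 1 fell and 11 did not pass, beside 4.49% higher and 4.57% lower among all tested genes. The median log2 fold change was 2.39, against 0.10 over all tested genes. The risen genes were Fat1, Dchs1, Tjp1, Lpp, Amotl1, Ptpn14 and Ctnna1. Fat1, an atypical cadherin, had 3453 and 4184 counts against 31 and 122, a log2 fold change of 5.17 (SE 0.75, adjusted p = 0.0042 in edgeR). Dchs1, the cadherin that pairs with FAT4, had 399 and 672 counts against 5 and 6, a log2 fold change of 6.16 (SE 1.22, adjusted p = 0.0162 in edgeR). Both genes were present at low levels in Lgr6-negative cells and were called in all 12 alternatives. The log2 fold change of Fat1 was 4.44 without Lgr6-negative replicate 1 and 6.60 without Lgr6-negative replicate 2. Tjp1, the gene of the tight junction protein ZO-1, had 2330 and 2395 counts against 147 and 39, and a log2 fold change of 4.30 (SE 0.70, adjusted p = 0.00712 in edgeR), which became 5.39 and 3.67 without Lgr6-negative replicates 1 and 2. Lpp, a LIM protein gene, stood at 607.5 and 641.9 against 147.4 and 91.01 CPM. Zyx, which encodes a LIM protein of focal adhesions, fell, at 101.0 and 116.6 against 379.4 and 565.6 CPM (log2 fold change -2.12, SE 0.42, adjusted p = 0.0162 in edgeR). Leaving out 1 library ended the call of Zyx (Lgr6-negative replicate 2, adjusted p = 0.058), of Ctnna1 (Lgr6-positive replicate 2, 0.0549) and of Amotl1 (Lgr6-positive replicate 1, 0.0838, and Lgr6-negative replicates 1 and 2, 0.118 and 0.077).

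TEAD cofactors gave few values. Vgll1, Vgll2, Vgll3 and Fam181a did not pass the filter on low counts, and of the 4 tested genes edgeR called 0, with 0 also at an unadjusted p under 0.05, by DESeq2 and by limma-voom. Vgll4, a repressor that competes with YAP for TEAD, had 292 and 152 counts against 29 and 68 (log2 fold change 1.73, adjusted p = 0.503 in edgeR). Nfic and Ncoa3 had log2 fold changes of 1.02 and -0.58, and Fam181b had counts in only 1 library of each population, 23 and 21. Of the exonic length of Fam181b, 56.8% overlaps Gm9934.

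**Figure D4:**
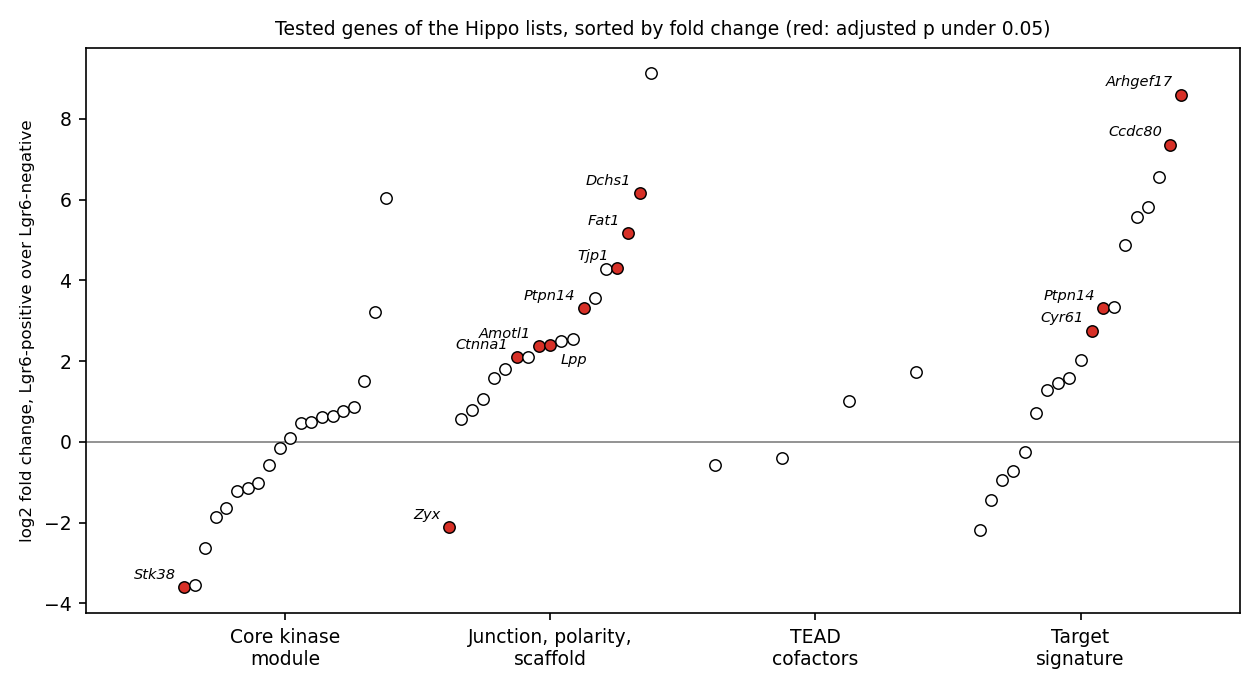
Log2 fold change of every tested gene in the 4 pathway lists, each list sorted from low to high, with genes of adjusted p under 0.05 in red. The junction list lies above 0 for 18 of 19 genes, and the kinase list is divided evenly at 10 and 10. Of all tested genes, 52.3% lie above 0.

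The target list was a published YAP and TAZ signature of 22 genes and shares Amotl2 and Lats2 with the effectors. Of its 19 tested genes, 4 rose and 0 fell in edgeR's test, and 14 had positive fold changes. Of all tested genes 4.49% were called higher and 4.57% lower in that test, and 52.3% had positive fold changes. At an unadjusted p under 0.05 the targets had 10 genes higher and 1 lower (14.3% and 10.8% of all genes), with DESeq2 10 and 1 (12.1% and 8.55%), and with limma-voom 7 and 0 (6.47% and 6.24%). The median log2 fold change was 2.03, against 0.10 over all tested genes. Arhgef17 had 738 and 939 counts against 1 and 2. Its ratio was 419.2 (95% counting interval 143.2 to 2035, counting error only), and its adjusted p in edgeR's test was 0.00309. The fitted log2 fold change of 8.60 became 9.23 without Lgr6-negative replicate 2. Ccdc80, a matrix protein gene, had 188 and 296 counts against 1 and 1, with an adjusted p of 0.0397 in edgeR. It lost its call when Lgr6-positive replicate 2 or either Lgr6-negative library was left out (0.0931, 0.0762 and 0.0751). F3, the gene of tissue factor, had 721 and 727 counts against 20 and 0 and did not pass (adjusted p = 0.0530), though 10 of the 12 alternatives called it.

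Cyr61 and Ctgf encode secreted matrix proteins and are the targets most often read for YAP and TAZ. Cyr61 had 2959 and 1742 counts against 117 and 384, or 362.8 and 220.7 against 18.25 and 68.26 CPM, and rose (log2 fold change 2.75, SE 0.69, adjusted p = 0.0417 in edgeR). It was called in all 12 alternatives, with a log2 fold change of 2.08 without Lgr6-negative replicate 1 and 3.98 without Lgr6-negative replicate 2. Ctgf had 797 and 116 counts against 19 and 46, and 23.2% of its exonic length overlaps Gm15270. Its Lgr6-positive libraries were both higher but differed widely from each other, and the log2 fold change of 3.33 (SE 1.31) did not pass (adjusted p = 0.149 in edgeR). Lgr6-positive replicate 1 held most of the counts, and the value was 1.39 without that library (adjusted p = 0.717) and 4.10 without Lgr6-positive replicate 2 (adjusted p = 0.0111). Ankrd1 had 0 counts in all 4 libraries. Ptpn14, which encodes a phosphatase that holds YAP in the cytoplasm and stands on both lists, had 830 and 736 counts against 76 and 44 (log2 fold change 3.31, SE 0.84, adjusted p = 0.0440 in edgeR). Its call was lost without Lgr6-positive replicate 1 (log2 fold change 3.24, adjusted p = 0.0517), without Lgr6-negative replicate 2 (3.02, 0.116) and with limma-voom (3.31, 0.0764).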

How the data were processed

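The authors deposited expected counts per gene in 4 libraries, not scaled for depth. Per the submitters' processing notes, RSEM 1.2.22, STAR 2.4.2a and mm10 were used. For annotation, strand setting and trimming, nothing was stated (not given in the sources used here). All values were rounded, since 3.363% to 4.86% of them were fractional. edgeR 4.0.16 (R 4.3.3) was fitted on the whole table with group as the only factor, TMM factors and filterByExpr (minimum count 10, minimum total 15), which kept 11661 genes. P-values came from the quasi-likelihood test with Benjamini-Hochberg adjustment over those genes. DESeq2 1.42.0 and limma 3.58.1 were alternatives. A gene with 0 counts in a group was set against 3 counts per library. In the libraries 3 counts are 0.368 to 0.533 CPM. Lengths and positions came from GENCODE M21 (GRCm38), matched by symbol for 96.7% of tested genes. The fits were tested on simulated data. No replicate pair was a duplicate (chi-square over its degrees of freedom 100.9 and 86.4).

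The effectors, the pathway lists and the marker lists were chosen with earlier results of these data known, and the target list was written from memory of a published signature. Named genes were Lgr6, the effectors, up to 4 tested genes of smallest p per pathway list (6 of the target list, with Cyr61, Ctgf and Ankrd1) and the 3 nearest profiles of Yap1 and of Wwtr1. Amotl1, Ctnna1 and Zyx were named after their values were seen, to complete a count of calls.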

Additional observations from a re-analysis of the deposited data

How the results depend on the processing

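Against 524 genes called higher and 533 lower over the whole table, no low-count filter gave 967 and 854, DESeq2 gave 1407 and 997, and library-size scaling gave 327 lower. Leaving out 1 library at a time gave 678 to 956 higher and 540 to 1030 lower, the largest counts without Lgr6-positive replicate 1. Library-size scaling moved the median log2 fold change of all genes from 0.10 to 0.56 and the share of calls that were higher from 49.57% to 65.76%. Effectors called higher were 2, with 5 under DESeq2 (12.1% of all genes called higher there) and 2 to 3 with 1 library left out. Wwtr1 and Tead2 were called in all 12 alternatives. Lists with DESeq2 gave 11 junction genes higher, 10 targets higher and 4 kinase genes lower, beside 12.1% higher and 8.55% lower among all tested genes. Limma-voom gave 7 targets higher and no filter 8. In these 2 settings 754 and 967 genes of the whole table were called higher, against 524 in the reported fit. The reversed values were those of Ajuba, -4.29 and -0.61 (without Lgr6-positive replicate 1 and without Lgr6-negative replicate 2, in a range that reached 7.75), and of the cofactor Fam181b, -0.39 as fitted, with 0.21 under library-size scaling, 0.57 without Lgr6-positive replicate 2 and -6.64 to 6.40 with any 1 library left out. The cause was not tested. Of 395 alternative values for 33 named genes, 339 kept direction and call, 43 gained the call and 8 lost it.

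Same-numbered libraries did not deviate together (correlation of deviations -0.0202). This 1 value, taken between populations of unlike marker content, cannot decide whether the libraries were paired. The labels state no pairing, and the reported fit uses none. With a replicate block, 678 genes were higher and 662 lower, 2 effectors were higher and 0 lower, and the targets counted 7 higher and 1 lower.

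With 1 library left out, the lone library of a population is assumed to vary like the other pair. The reported fit had 2 libraries per group and a common dispersion of 0.795. Yap1 and Tead1 did not pass in it, at log2 fold changes of 2.78 (SE 1.16) and 3.25 (SE 1.05). Why they did not pass was not tested. Tead3 and Tead4 did not pass the low-count filter of that fit. Each was tested in 4 of the alternatives and was not called there.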

Other observations

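Genes whose profile over the 4 libraries lay nearest to that of Wwtr1 were looked for, with log2 CPM centred on each gene's mean and likeness as the root mean square distance. The nearest was Ehf, an epithelial ETS factor gene, at a distance of 0.1437 on the log2 scale, with counts of 2727 and 3565 in Lgr6-positive cells against 88 and 20. It rose (log2 fold change 5.50, SE 0.74, adjusted p = 0.00309 in edgeR's quasi-likelihood test), with log2 fold changes of 6.77 and 4.82 without Lgr6-negative replicates 1 and 2. Elovl4, a gene of very long-chain fatty acid elongation, followed at 0.2097, with 498 and 666 counts against 13 and 2. It rose too (adjusted p = 0.025 in edgeR). Galnt15 came next at 0.2136, with 205 and 316 counts against 7 and 0, and did not pass (adjusted p = 0.099 in edgeR). Nearest to Yap1 were Cfap126 (0.1257), Eml5 (0.1261) and Cirbp (0.1378), the gene of a cold-inducible RNA-binding protein. Cirbp had 175 and 318 counts against 57 and 6. Cfap126 had only 41 and 63 counts against 12 and 0. Its log2 CPM in Lgr6-negative replicate 2, and so its distance, depends on the prior count of 2. None of these neighbours of Yap1 passed edgeR's test. With 4 libraries many genes share a profile, so the lists are a description.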
